A study of Mus musculus with 14 samples.

Results

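Ion channel genes were followed through the development of the pontine nuclei (PN), the brainstem relay between the cerebral cortex and the cerebellum, in single-cell RNA sequencing data of mouse cells of the *Atoh1* lineage. The genes were taken by a rule on their names, which was set with earlier results of these data known. They are all those whose symbol starts with Kcn, Scn or Cacn in the way that potassium, sodium and calcium channel genes are named, and they number 138 of the 31054 genes counted. By role they are 40 voltage-gated potassium channel subunits that form the pore, 12 of their auxiliary subunits, 12 genes of calcium- or sodium-activated potassium channels, 15 inward rectifiers and 14 two-pore potassium channels. The sodium channels have 10 pore-forming (alpha) and 4 beta genes, the calcium channels 10 pore-forming (alpha1), 4 alpha2delta and 4 beta genes, and 8 are *Cacng* genes. Another 5 symbols that the rule takes are non-coding RNAs, *Kcnq1ot1* among them. Every one of the 138 genes had a UMI in the cells kept, and 81 reached 5 CPM (UMI counts scaled to 1000000 per library or class) over all kept cells of some library while 57 did not.

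Both genotypes carried 1 *Atoh1* allele that was replaced by Cre and is functionally null, so the controls were *Atoh1* Cre/+; *Rosa* lsl-tdTomato/+ and not wild type. The other genotype was *Atoh1* Cre/S193A; *Rosa* lsl-tdTomato/+, in which the remaining allele is a hypomorph, written *Atoh1*S193A/- below. All mice are labeled C57BL/6J. At embryonic days E14.5 and E18.5 tdTomato cells of whole hindbrains were sorted from 3 control and 3 *Atoh1*S193A/- embryos, 1 embryo per library, and at postnatal day (P) 5 from the dissected PN of 11 to 13 pooled control pups in each of 2 libraries. Cre runs from the *Atoh1* locus and marks every descendant of its cells, which include cerebellar granule neurons as well as PN neurons. The S193A allele is still transcribed, so the level of *Atoh1* did not check the labels.

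The 14 libraries held 80250 cells after filtering, 34425 at E14.5, 31819 at E18.5 and 14006 at P5, with medians of 12010.5 to 20913 UMIs per kept cell. Together the 138 genes took between 0.173 and 0.345% of the UMIs of a library. Pairs of libraries shared 13 to 67 cell barcodes, at most 0.624% of the smaller library. The labels call the cells neurons, and the P5 libraries also held glia: markers of astrocytes summed to 2102 and 2207 CPM over all P5 cells and those of microglia to 1043 and 1068 CPM, against 12.2 to 32.5 CPM of the latter in E18.5 controls. Another version of the counting software was used for E14.5 controls 1 and 2 than for the other 12 libraries.

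A neuron fires action potentials when voltage-gated sodium channels open, repolarizes through voltage-gated potassium channels and releases transmitter on calcium entry through voltage-gated calcium channels. Two-pore and inward rectifier potassium channels set the resting potential, and auxiliary subunits change the gating, the trafficking or the partners of a pore. Channel subunits change in a stereotyped way as neurons mature, and glia carry a potassium conductance of their own that buffers the ion around neurons. Several of the sodium channel alpha genes described here lie near each other on mouse chromosome 2 (GRCm38, GENCODE M21): *Scn3a* (65457118 to 65567627, minus strand), *Scn2a* (65620771 to 65767447, plus), *Scn1a* (66270778 to 66440840, minus) and *Scn9a* (66480080 to 66634962, minus).

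The upstream sequences of *Kcnj3*, *Kcnj10* and *Kcnj16* are shown because these genes mark neurons and glia in the results below. Windows of 250 bases before the RefSeq starts (GRCm38.p6) were searched on both strands for the E-box CAGCTG, which bHLH factors such as ATOH1 bind, for the GC box GGGCGG and for TATAAA. The table held 137 windows for 101 of the 138 symbols. The E-box was in 24.1% of member windows and 13% of all 32851 windows, the GC box in 42.3 and 32.7%, and TATAAA in 3.65 and 12.4%. A match is a description of letters and not a bound site, and none of the matches shown overlapped another motif. *Kcnj3* encodes a subunit of the G protein-gated channel of neurons and is shown with its E-box in capitals, 65 bases before the start (chr2:55435720-55435969, plus strand). *Kcnj10* and *Kcnj16* encode the glial inward rectifier pair Kir4.1 and Kir5.1. They are shown with 2 GC boxes (chr1:172340960-172341209, plus strand, starting 130 and 36 bases before the start and read there as CCGCCC from the other strand) and an E-box (chr11:110967783-110968032, plus strand, 149 bases before the start) in capitals.
Kcnj3: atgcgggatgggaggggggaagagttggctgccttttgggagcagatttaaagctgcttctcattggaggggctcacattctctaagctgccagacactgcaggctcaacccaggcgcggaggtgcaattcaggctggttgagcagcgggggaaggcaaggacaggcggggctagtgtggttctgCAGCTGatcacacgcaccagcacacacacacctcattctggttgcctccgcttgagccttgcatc
Kcnj10: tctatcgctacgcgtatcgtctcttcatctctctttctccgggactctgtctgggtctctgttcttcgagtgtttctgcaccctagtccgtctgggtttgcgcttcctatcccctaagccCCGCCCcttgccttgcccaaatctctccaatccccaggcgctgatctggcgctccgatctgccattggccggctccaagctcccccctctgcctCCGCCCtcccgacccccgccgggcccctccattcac
Kcnj16: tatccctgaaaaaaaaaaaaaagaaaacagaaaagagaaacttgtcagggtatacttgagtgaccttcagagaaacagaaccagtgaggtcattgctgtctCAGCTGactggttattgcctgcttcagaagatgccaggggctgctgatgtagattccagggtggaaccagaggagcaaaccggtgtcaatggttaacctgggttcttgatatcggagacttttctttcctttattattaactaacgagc

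The summed share of UMIs from the 138 genes, given as a description, was higher on average at the neuronal end of the PN lineage than in its progenitor-like cells. In E14.5 control libraries it averaged 0.122% ± 0.0244 (SD, n = 3) in progenitor-like, 0.12% ± 0.0131 in the intermediate progenitor-like state, 0.131% ± 0.00106 in migrating neuron-1-like and 0.216% ± 0.0195 in differentiated neuron-like PN cells. Migrating neuron-2-like cells averaged 0.204% ± 0.00932, overlapped with the differentiated state and stood above it in control library 1 (0.214 against 0.209%). The 5 non-coding members held 0.0471% in progenitor-like and 0.0362% in differentiated neuron-like cells of these totals. PN-like neurons had 0.317% ± 0.00637 (n = 3) at E18.5 and 0.367% ± 0.016 (n = 2) at P5. At E18.5, granule neuron-like cells had 0.326% ± 0.00423, their progenitor-like cells 0.177% ± 0.00713 and unipolar brush cell-like cells 0.376% ± 0.00866 (n = 3), above the PN-like neurons of that stage in each library. The P5 glia were lower, at 0.18% ± 0.0199 in astrocyte-like, 0.172% ± 0.0191 in oligodendrocyte lineage-like and 0.0532% ± 0.0194 in microglia-like cells (n = 2).

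Which channel genes change as a PN precursor becomes a neuron was asked in the 3 control libraries of E14.5, where PN-like cells fell into 5 states. In order these are progenitor-like and intermediate progenitor-like, then the migrating neuron-1-like and -2-like states, and last the differentiated neuron-like one. The names come from marker lists that the study found on these same libraries, and the channel genes took no part in the clustering. PN-like cells numbered 3417 in the E14.5 controls, 222 of them without a state, and 1728 in the E18.5 controls. At both stages this is more than the control PN cells of the study, although fewer E14.5 control cells were kept here. The class is thus not the study's PN subset, and which other cells it holds was not tested. UMIs were summed per library and state, so n is 3 embryos, with 69 to 106 progenitor-like and 247 to 662 differentiated neuron-like cells per library. Differentiated neuron-like cells were compared with progenitor-like cells of the same libraries.

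Most of the sodium, calcium and potassium channel genes that could be tested rose. Of 57 tested, 42 were higher in differentiated neuron-like cells and 10 were lower (edgeR, false discovery rate (FDR) under 0.05 and a log2 change beyond 0.25), where 33.8% of all genes tested were higher and 35% lower. The median log2 difference was 2.67 over the channel genes and -0.01 over all genes. All 5 states were fitted together, so the SE and FDR draw on each of them. The filter on low counts could keep a gene that is high in any of the 5 states. It left 81 members untested, so the median holds for those tested only. All 5 sodium channel alpha genes tested were higher, as were 10 of 13 voltage-gated potassium alpha genes, 6 of 7 calcium alpha1 genes and 5 of 5 calcium- or sodium-activated potassium genes. Auxiliary subunits of potassium channels went the other way in 3 of 4.

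*Scn2a*, a main axonal sodium channel of young neurons, was at 2.09, 2.06 and 0.655 CPM in progenitor-like cells of libraries 1, 2 and 3. In differentiated neuron-like cells it was at 48.2, 54.9 and 51.6 CPM, so that the states did not overlap (log2 difference 4.85 ± 0.31 SE, FDR = 1.8e-10). The migrating neuron-2-like state already held 47.2, 30.2 and 47.2 CPM. *Scn3a*, the embryonic sodium channel, went from 3.49, 7.84 and 3.93 CPM to 98.6, 107 and 90.9 CPM (4.11 ± 0.26 SE). *Scn3b*, a beta subunit, rose by 3.61 ± 0.30 (SE) on the log2 scale and *Scn9a*, best known from sensory neurons, by 2.67 ± 0.29. *Scn8a*, later the channel of the mature axon initial segment, changed least among the 5 (1.18 ± 0.20 SE) and stood at 34.9, 28.1 and 28.5 CPM in migrating neuron-1-like cells against 24.9, 30.4 and 19.1 CPM in differentiated ones.

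Calcium channel subunits rose in the same comparison. *Cacna2d1*, the alpha2delta subunit that brings channels to the membrane and binds gabapentin, was at 5.58, 4.54 and 3.93 CPM in progenitor-like and at 122, 163 and 114 CPM in differentiated neuron-like cells (4.78 ± 0.27 SE). Its level was 27.5, 56.2 and 38 CPM in migrating neuron-1-like and 164, 134 and 153 CPM in migrating neuron-2-like cells, so the migrating neuron-2-like and the differentiated values overlapped. *Cacna1b* (N type, presynaptic) rose by 3.65 ± 0.25 (SE), *Cacnb4* by 3.27 ± 0.33, *Cacna1h* (T type) by 2.70 ± 0.46 and *Cacna1a* (P/Q type) by 0.89 ± 0.15. *Cacna1g*, another T-type gene, was lower (-0.66 ± 0.24 SE) and its libraries overlapped. It stood at 36.3, 37.5 and 24.2 CPM in progenitor-like cells, at 2.18, 0 and 0.76 CPM in migrating neuron-1-like and at 20.04, 25.8 and 18.3 CPM in differentiated cells. *Cacna2d3* fell from 4.88, 5.36 and 13.8 CPM to 1.42, 1.71 and 1.28 CPM (-2.50 ± 0.55 SE).

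Potassium channel genes took several courses. *Kcnc1* (Kv3.1, fast repolarization) rose from 0.698, 1.65 and 3.27 CPM to 71.7, 87.3 and 60.5 CPM (5.23 ± 0.32 SE). *Kcnd2* (Kv4.2, the transient A-type current) stayed at 5.46 to 6.23 CPM in migrating neuron-2-like cells and reached 66.4, 34.4 and 71.05 CPM in differentiated ones (4.76 ± 0.38 SE against progenitor-like cells). *Kcnh7*, an ERG-type gene, rose by 3.82 ± 0.25 (SE). *Kcnj6* (GIRK2) was at 0, 0 and 0.655 CPM in progenitor-like and at 13.4, 5.53 and 12.1 CPM in differentiated cells, and *Kcnj3*, its partner GIRK1, at 0, 0.412 and 0.655 against 8.10, 3.95 and 5.73 CPM. *Kcnk9* (a TASK leak channel) was at 0.698, 0.412 and 0 against 15.2, 30.7 and 10.7 CPM, and *Kcnma1* (the BK channel) at 0.698, 0 and 0.655 against 6.28, 7.77 and 9.75 CPM. All of these rose without overlap, and no fold is given for the last 4 because their progenitor-like levels rest on 1 or 2 UMIs over the libraries.

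*Kcnq3*, a subunit of the M current, which dampens repetitive firing, took a course of its own. It was at 33.5, 55.3 and 32.7 CPM in progenitor-like cells, at 109, 87.9 and 105 CPM in intermediate progenitor-like cells and at 7.49, 7.84 and 10.3 CPM in migrating neuron-2-like cells. In differentiated cells it was at 15.6, 15.5 and 21.7 CPM, below the progenitor-like cells in each library (-1.31 ± 0.18 SE, FDR = 5.3e-06). Every intermediate progenitor-like value lay above every value of the other states. The steps between neighboring states were not tested, here and for the next genes.

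*Kcna2* (Kv1.2, an axonal delayed rectifier) took another course. It went from 1.395, 3.30 and 1.31 CPM in progenitor-like cells through 29.1, 59.8 and 22.5 CPM in intermediate progenitor-like cells to 119, 106 and 79.8 CPM in migrating neuron-2-like cells. Differentiated cells held 40.9, 53.5 and 26.9 CPM, still above the progenitor-like cells (4.16 ± 0.33 SE). *Cacng4*, which encodes an AMPA receptor auxiliary subunit despite its name, dipped in between. It was at 164, 219 and 124 CPM in progenitor-like cells, dropped to 28.2, 53.2 and 19.9 CPM in the intermediate progenitor-like state and stood at 151, 173 and 156 CPM in differentiated cells. The end points of *Cacng4* did not differ beyond the spread (-0.14 ± 0.17 SE, FDR = 0.488), whereas the related *Cacng2* (stargazin) rose by 4.66 ± 0.42.

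Members that fell included *Kcne1l*, an auxiliary subunit, from 89.3, 98.2 and 66.8 CPM to 17, 24.8 and 12.4 CPM (-2.30 ± 0.13 SE). *Kcnk1* (TWIK) fell by 1.26 ± 0.21 (SE) and *Kcnab1*, a beta subunit of Kv1 channels, by 2.14 ± 0.33. *Kcnj10* was at 7.67, 5.77 and 4.58 CPM in progenitor-like cells and at 0, 0.263 and 0 CPM in differentiated cells. *Kcne1* was at 4.18, 7.84 and 9.82 CPM in progenitor-like cells and had no UMI in the other states. Among 28 channel partners outside the rule (HCN channels, NALCN and its subunits, ankyrins, FGF homologous factors and the like), 18 of 22 tested rose and 2 fell. The 2 were *Trpm7* and *Rest*, the repressor of neuronal genes, which went from 70.5, 77.1 and 56.3 CPM to 10.1, 8.56 and 9.32 CPM (-2.94 ± 0.19 SE).

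**Figure D1:**
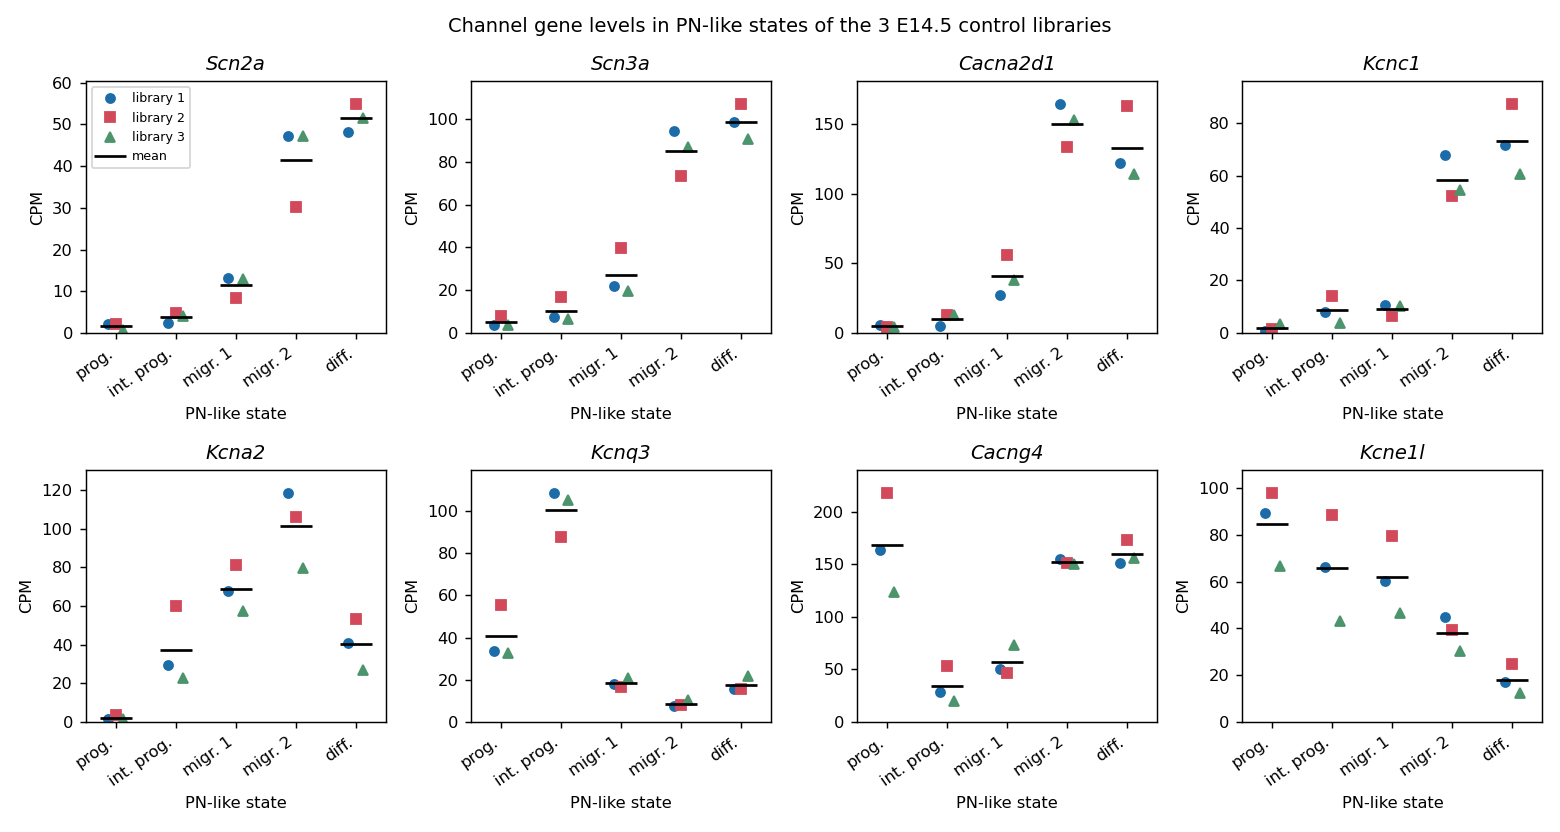
Levels of 8 channel genes (CPM, linear axes from 0) in the PN-like states of the 3 E14.5 control libraries, each symbol 1 library and each black bar the mean of the libraries. *Scn2a*, *Scn3a*, *Cacna2d1* and *Kcnc1* climbed towards the neuronal states, *Kcnq3* peaked in intermediate progenitor-like cells at 87.9 to 109 CPM, *Kcna2* peaked in migrating neuron-2-like cells, *Cacng4* dipped and *Kcne1l* declined.

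The cerebellar granule lineage at E18.5 allowed the same question in another *Atoh1* lineage, as granule neuron-like cells against cycling granule progenitor-like cells of the 3 control libraries. Of 93 channel genes tested, 72 were higher in granule neuron-like cells and 12 lower, with 36.8% of all genes higher and 36.1% lower, and the median log2 difference was 1.48 over the channel genes and 0.01 over all genes. Sodium channels were again all higher, 5 of 5 alpha and 3 of 3 beta genes. *Kcna1* (Kv1.1) was at 0.137, 0.392 and 0.205 CPM in progenitor-like cells and at 18, 18.9 and 22.1 CPM in granule neuron-like cells (6.15 ± 0.20 SE, FDR = 1.9e-14). *Scn9a* rose by 4.20 ± 0.14 (SE), *Kcnh7* by 3.60 ± 0.12, *Scn2a* by 3.49 ± 0.10 and *Scn3a* by 3.38 ± 0.14. *Kcne1l* fell by 1.26 ± 0.05, from 62.55, 63.2 and 60.8 CPM to 30.2, 30.2 and 29.2 CPM, and *Cacng5* (-1.56 ± 0.15), *Kcnab1* (-1.19 ± 0.12), *Kcnab2* (-0.49 ± 0.12) and *Kcnq1ot1* (-0.43 ± 0.05) fell as well.

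Some genes took another course here than in the PN lineage. *Kcnq3* was at 13.8, 11.1 and 12.9 CPM in progenitor-like and at 13.8, 11.3 and 13.3 CPM in granule neuron-like cells (-0.18 ± 0.08 SE, FDR = 0.061). The log2 value holds the normalization factors of the fit, which the CPM do not. *Kcnk1* rose by 2.47 ± 0.05 (SE), from 18.8, 15.9 and 16 CPM to 109.8, 106 and 109 CPM, and *Cacna1g* by 2.21 ± 0.18. Whether these differ between the lineages was not tested, since the lineages were compared at different stages. Of the 28 partners 23 rose and 4 fell.

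How channel genes go on to change in PN neurons was asked by comparing PN-like differentiated neurons of control libraries at E14.5, E18.5 and P5. The E18.5 libraries stand in both steps, so the steps are not independent, and stage goes together with dissection at P5. E14.5 controls 1 and 2 were counted with another software version than the E18.5 controls. Stage and version cannot be told apart for those libraries, and the step from E14.5 to E18.5 was not refitted with 1 version. Neuron markers summed to 9856 to 10180 CPM at E14.5, 13990 to 15280 at E18.5 and 15840 to 16730 at P5. The 6 PN lineage markers summed to 1602 to 2128, 813.7 to 833.7 and 460.6 to 469.1 CPM in that order, and 6 markers of unipolar brush cells to 17.6 to 26.1, 76.8 to 110.6 and 498 to 518 CPM. From E18.5 to P5, markers of the oligodendrocyte lineage went from 57.5 to 62.3 CPM to 123 to 185.5 CPM in these neurons, those of astrocytes or radial glia from 130.1 to 161.8 CPM to 222 to 270.1 CPM, and those of microglia from 13.1 to 16.3 CPM to 30.2 to 37.8 CPM, all without overlap. From E14.5 to E18.5, markers of intermediate progenitors went from 329.6 to 439 CPM to 137.1 to 158.5 CPM. Those of the oligodendrocyte lineage went from 69.3 to 99.4 CPM to 57.5 to 62.3 CPM. Microglia markers went from 6.33 to 7.77 CPM to 13.1 to 16.3 CPM, and these too were without overlap. The part of these markers in the changes between stages was not tested. The neurons of a stage were pooled over subtypes, and the subtypes named at E18.5 and at P5 are not the same set. *Kcnd2*, *Kcnk2* and *Scn9a* ranged more among the P5 subtypes described below than they changed from E18.5 to P5. *Scn2a* and *Scn3a* ranged less. The part of subtype make-up in the changes between stages was not tested either. Between E14.5 and E18.5, of 77 channel genes tested 44 were higher and 10 lower at E18.5, with 26.5% of all genes higher and 24.8% lower, and a median of 0.74 against 0.01. Between E18.5 and P5, of 91 tested 46 were higher and 16 lower at P5, with 28.4% of all genes higher and 27.4% lower, and a median of 0.42 against -0.02.

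*Scn2a* rose at each step. It was at 48.2, 54.9 and 51.6 CPM at E14.5, 160.5, 147.5 and 146 CPM at E18.5 and 259 and 272 CPM at P5, and no library of a stage overlapped another stage (log2 changes 1.41 ± 0.10 and 0.91 ± 0.09 SE). *Scn1a*, the sodium channel behind Dravet syndrome, rose by 1.04 ± 0.25 and 1.42 ± 0.13.

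The other sodium channels separated by step. *Scn8a* was at 24.9, 30.4 and 19.1 CPM, then at 35.1, 29.2 and 32.7 CPM and at P5 at 60.4 and 56.4 CPM, and it passed the test in the second step only (0.26 ± 0.17, FDR = 0.215, and 0.95 ± 0.10, FDR = 1.1e-05). *Scn2b* likewise was level at first (0.04 ± 0.25) and then rose by 1.95 ± 0.15. *Scn3b* rose in the first step (0.93 ± 0.12) and did not pass in the second (0.22 ± 0.09, FDR = 0.0598). *Scn9a* fell in both, from 98.4, 121 and 91.2 CPM to 80.7, 91.8 and 83.3 CPM and then to 54.3 and 57.9 CPM (-0.42 ± 0.12, with overlap between libraries, and -0.50 ± 0.10). *Scn3a*, the embryonic channel, did not fall: it was at 98.6, 107 and 90.9 CPM at E14.5, 126.5, 108 and 125 CPM at E18.5 and 151 and 149.8 CPM at P5 (0.15 ± 0.10 and 0.43 ± 0.09).

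*Kcnq3* had the reverse course of its early decline. From 15.6, 15.5 and 21.7 CPM at E14.5 it rose to 81.4, 94.1 and 75.3 CPM at E18.5 and to 295 and 256 CPM at P5 (2.08 ± 0.16 and 1.83 ± 0.11 SE). *Kcnq5*, another M-current gene, was under 1 CPM in each E14.5 library and rose to 2.10 to 3.85 CPM at E18.5 and 21.1 and 19.2 CPM at P5 (2.59 ± 0.40 and 2.66 ± 0.18).

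Several voltage-gated potassium genes rose. *Kcna1* went from 2.02, 1.45 and 1.97 CPM to 4.31, 7.62 and 6.02 CPM and then 40.1 and 36.9 CPM (1.57 ± 0.30 and 2.79 ± 0.17), and *Kcna6* rose by 2.83 ± 0.27 by E18.5. *Kcnc4* (Kv3.4, fast-inactivating) was at 1.33 to 2.95 CPM at E18.5 and at 15.8 and 14.6 CPM at P5 (3.15 ± 0.22). *Kcnc1* fell at both steps, from 71.7, 87.3 and 60.5 CPM to 46.7, 47.3 and 43.3 CPM and then 31.6 and 31.3 CPM (-0.81 ± 0.13 and -0.43 ± 0.10). *Kcna2* did not pass in either step (-0.19 ± 0.21, FDR = 0.464, and 0.09 ± 0.11, FDR = 0.521).

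A-type channel genes and their partners moved as well. *Kcnd2* rose from 66.4, 34.4 and 71.05 CPM to 162, 139.9 and 164 CPM and then 185 and 199.5 CPM (1.31 ± 0.22 and 0.41 ± 0.10), while *Kcnd3* (Kv4.3) fell from 28.7, 50.3 and 18.4 CPM to 8.16, 4.73 and 5.40 CPM (-2.56 ± 0.37) and stood at 8.60 and 6.32 CPM at P5. *Kcnip4*, a calcium-binding partner of Kv4, rose in both steps (2.55 ± 0.38 and 1.02 ± 0.17). *Kcnip1* rose and then fell (0.74 ± 0.25 and -0.60 ± 0.16). *Kcnip3* rose by 2.62 ± 0.35 by E18.5. *Kcne1l* went on falling, to 2.04, 3.42 and 2.125 CPM at E18.5 (-3.02 ± 0.32).

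Among the leak, rectifier and calcium-activated genes, *Kcnma1* rose from 6.28, 7.77 and 9.75 CPM to 34.2, 31.3 and 28.8 CPM and then 118 and 108 CPM (1.80 ± 0.17 and 1.96 ± 0.10). *Kcnk3* (TASK1) rose by 1.95 ± 0.25 and 0.39 ± 0.13 and *Kcnk1* by 1.41 ± 0.16 and 0.68 ± 0.12. *Kcnk2* (TREK1, opened by stretch and lipids) fell, from 133, 109 and 124 CPM to 73.5, 66.5 and 67.4 CPM and then 49.5 and 43.1 CPM (-0.95 ± 0.10 and -0.48 ± 0.09). Both G protein-gated partners rose at each step, *Kcnj3* by 0.95 ± 0.26 and 0.80 ± 0.15 and *Kcnj6* by 1.20 ± 0.26 and 0.77 ± 0.13. The non-coding *Kcnq1ot1*, an imprinted antisense transcript, rose by 0.70 ± 0.15 and then fell by 0.81 ± 0.09.

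Of the calcium channel genes, 7 of 8 alpha1 genes tested rose by E18.5 and none fell, whereas 3 rose and 2 fell from E18.5 to P5. *Cacna1e* (R type) rose from 12.6, 8.96 and 12.7 CPM to 73.9, 74.1 and 81 CPM and then 119 and 94.8 CPM (2.61 ± 0.14 and 0.58 ± 0.10). *Cacna1h* was level by E18.5 (0.15 ± 0.19) and fell by 1.22 ± 0.19 by P5. *Cacna2d2* rose by 0.69 ± 0.21 and 1.25 ± 0.12, and *Cacna2d3* went from 2.72, 1.31 and 1.59 CPM at E18.5 to 12.8 and 9.83 CPM at P5 (2.74 ± 0.25). *Cacng4* fell in both steps (-0.53 ± 0.10 and -0.95 ± 0.10), and *Cacng7* (-1.68 ± 0.20) and *Cacng8* (-1.04 ± 0.17), which belong to the same AMPA receptor family, fell by P5. *Cacng2* rose by 0.76 ± 0.12 and then did not pass the test (0.03 ± 0.11). Partner genes rose in 21 of 27 tested by E18.5 and in 15 of 27 by P5, with 2 and 3 falls.

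**Figure D2:**
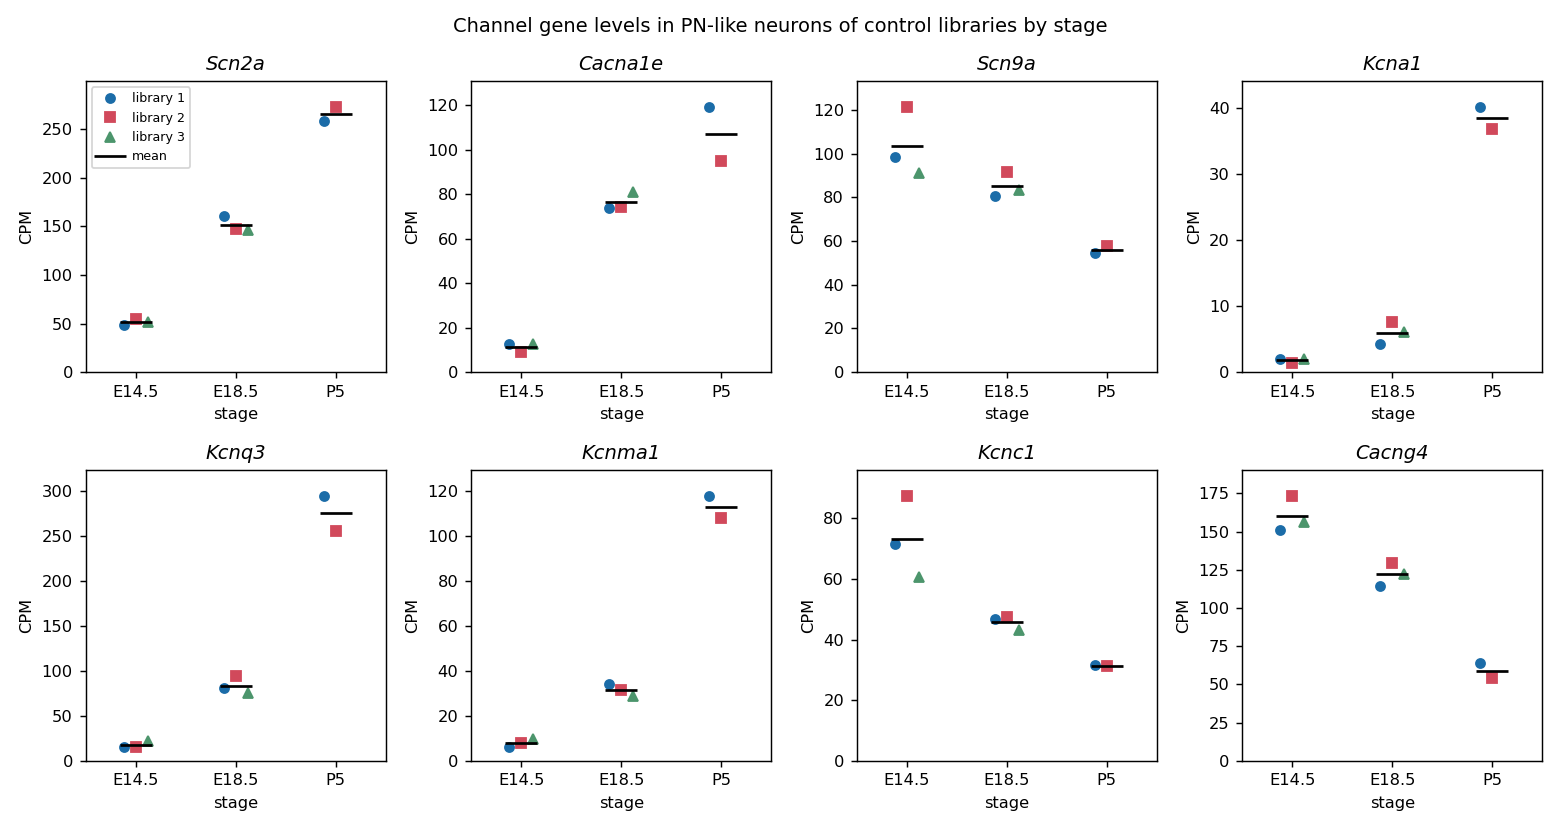
Levels of 8 channel genes (CPM, linear axes from 0) in PN-like differentiated neurons of control libraries by stage, with 3 libraries at E14.5 and at E18.5 and 2 at P5, each symbol 1 library and each bar the mean. *Scn2a*, *Cacna1e*, *Kcna1*, *Kcnq3* and *Kcnma1* rose to P5, *Kcnma1* to 118 and 108 CPM, while *Scn9a*, *Kcnc1* and *Cacng4* declined.

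In all kept cells of the control libraries the changes went both ways. Of 110 channel genes tested, 32 were higher and 31 lower at E18.5 than at E14.5 (22.7% of all genes higher, 22.9% lower, median -0.07 against 0.0041). Fewer cells of a type and less RNA per cell cannot be told apart in such sums. Progenitor markers summed to 1307 to 2441 CPM at E14.5 and 4461 to 4629 CPM at E18.5, and neuron markers to 5308 to 8108 and 3264 to 5334 CPM. Markers of unipolar brush cells (154.5 to 238 against 426 to 595 CPM), inhibitory neurons (63.9 to 102.8 against 113 to 144 CPM) and the oligodendrocyte lineage (73.8 to 96.3 against 103 to 125 CPM) were higher at E18.5 without overlap, and those of intermediate progenitors lower (719 to 1601 against 539.8 to 715 CPM). Their part in these counts was not tested. *Kcnk9* rose from 19.5, 32 and 24.7 CPM to 99.95, 91.2 and 88.8 CPM (1.80 ± 0.18 SE) and *Kcnj6* from 10.9, 8.18 and 14.2 CPM to 51.3, 50.7 and 51.1 CPM (2.12 ± 0.19). *Kcnip2* fell by 3.31 ± 0.26 and *Kcnip1* by 2.00 ± 0.29. With control library 3 alone at E14.5, the one made by the same software version, 48 of 117 members were called (28.7% of all genes) in place of 63 of 110 (45.6%), on the assumption that a lone library varies as those of E18.5 do.

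Whether PN subtypes differ in channel genes was asked at P5, where 6 subtypes named PN1-like to PN6-like held 195 to 574 cells in the smaller library and 360 to 1068 in the larger. The 2 libraries are pools of pups, and the test had the library as a second factor. Its p-values thus measure how the differences among subtypes vary over only 2 pools, and not the spread between the pools. Of 100 channel genes tested, 41 differed among the subtypes with a range above 1 on the log2 scale between the highest and the lowest, against 20.6% of all genes, and the median range was 0.91 over the channel genes and 0.47 over all genes. A range is never negative and grows with the noise of low counts. The channel genes were not matched to all genes for level. Voltage-gated potassium alpha genes made up 16 of the 41, out of 32 tested. All 4 calcium channel beta genes stayed below a range of 1. Median depth differed too, from 23684 to 26661 UMIs in PN3-like and 38398 to 48655 in PN4-like cells, and its part was not tested.

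*Kcnd2* separated every subtype from the others. It was at 334 and 326 CPM in PN3-like, 269 and 291 in PN5-like, 229 and 253 in PN4-like, 159 and 146 in PN2-like, 131 and 131 in PN6-like and 88.5 and 86.7 CPM in PN1-like cells of libraries 1 and 2 (range 1.93, FDR = 9.6e-25). No library of a subtype overlapped a library of another. *Kcnk2* was highest in PN3-like (92.6 and 79.96 CPM) and PN4-like (78.2 and 66.5 CPM) cells and lowest in PN5-like (19.3 and 15.6 CPM) and PN6-like (22.3 and 16.8 CPM) cells (range 2.31). The last 2 overlapped.

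*Kcnk9* was the reverse of *Kcnk2* in PN3-like cells. It was lowest there (12.3 and 8.34 CPM) and in PN5-like cells (14.8 and 14.4 CPM), between 45.2 and 52.6 CPM in PN1-like, PN2-like and PN4-like cells, which overlapped, and highest in PN6-like cells (81.9 and 67.1 CPM, range 2.87, FDR = 2.9e-21). *Kcna1* was highest in PN6-like cells as well (64.7 and 58.8 CPM) and lowest in PN3-like cells (18.1 and 14 CPM, range 1.97). *Scn2b* (range 1.03), *Kcnab2* (1.55) and *Kcnj3* (1.33) were highest and lowest in the same subtypes. *Scn9a* was the other way round, at 89 and 91.2 CPM in PN3-like and 38 and 42.7 CPM in PN6-like cells (1.13).

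Other genes set PN4-like and PN5-like cells apart. *Cacna2d3* was lowest in PN4-like cells, at 2.93 and 1.62 CPM, and highest in PN5-like cells, at 19.6 and 15 CPM (range 2.85). *Cacna2d1* was the reverse, at 220 and 222 CPM in PN4-like and 84.8 and 80.7 CPM in PN5-like cells (1.45). *Kcnmb2*, a BK channel beta subunit, was highest in PN4-like cells (37 and 32.6 CPM) and lowest in PN6-like cells (10.5 and 8.84 CPM, range 1.82). *Kcnip4* was at 47.3 and 52.1 CPM in PN4-like and 36.6 to 40.4 CPM in PN5-like and PN6-like cells, against 13.9 to 20.1 CPM in the other 3 (range 1.80). *Cacng8* was highest in PN3-like (9.61 and 10.5 CPM) and lowest in PN6-like (1.08 and 1.38 CPM, 3.03) and *Kcnd3* highest in PN2-like (11.2 and 8.10 CPM) and lowest in PN5-like cells (3.29 and 2.48 CPM, 1.77). *Kcnq5* was at 31.95 and 29.99 CPM in PN4-like and 11 and 10.1 CPM in PN1-like cells (1.60).

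Other sodium and calcium channel genes stayed below the range rule, though 2 of 6 sodium alpha, 2 of 3 sodium beta and 3 of 9 calcium alpha1 genes tested passed it. *Scn2a* lay between 237 and 293 CPM in all 12 subtype samples (range 0.28), *Scn3a* between 133 and 167 CPM (0.27), *Scn3b* between 100.3 and 122 CPM (0.18) and *Cacna1b* between 73.3 and 92.3 CPM (0.13). Of the 28 partners, 5 passed the range rule.

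**Figure D3:**
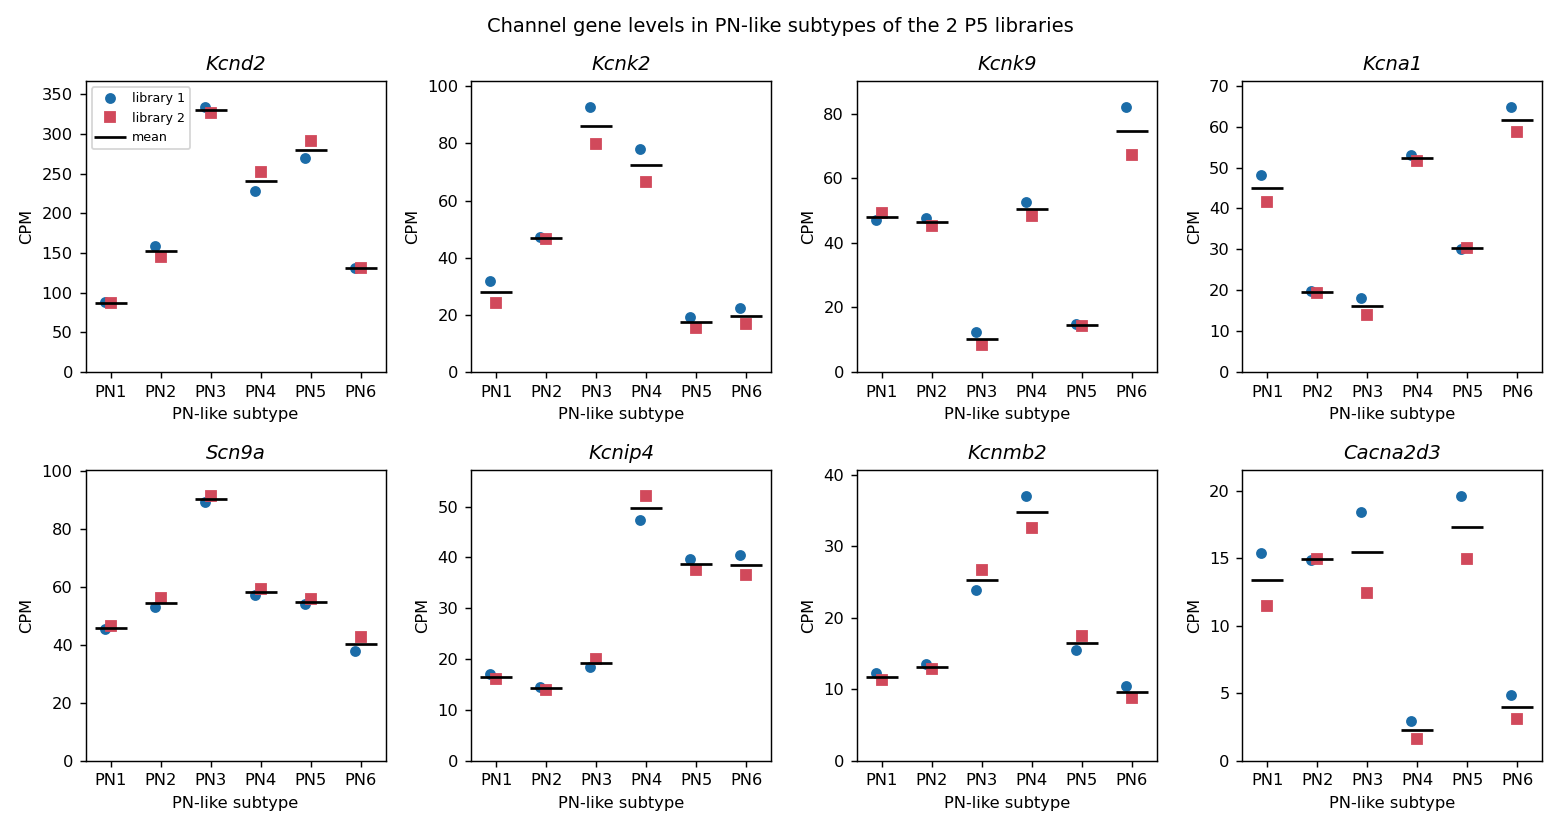
Levels of 8 channel genes (CPM, linear axes from 0) in the 6 PN-like subtypes of the 2 P5 libraries, each symbol 1 library and each bar the mean of both. *Kcnd2*, *Kcnk2* and *Scn9a* were highest in PN3-like cells, *Kcnk9* and *Kcna1* in PN6-like cells, *Kcnip4* and *Kcnmb2* in PN4-like cells, and *Cacna2d3* was lowest in PN4-like cells at 2.93 and 1.62 CPM.

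How glia differ from neurons was asked in the same 2 P5 libraries, with 368 and 198 astrocyte-like, 1101 and 354 oligodendrocyte lineage-like and 510 and 308 microglia-like cells against 4234 and 2407 PN-like neurons, and with a log2 difference beyond 1 needed for a call. Of 94 channel genes tested, 8 were higher and 62 lower in astrocyte-like cells (22.8% of all genes higher, 23.6% lower), 6 and 62 in oligodendrocyte lineage-like cells (19.5 and 23.5%) and 8 and 80 in microglia-like cells (26.7 and 32%). The medians were -2.29, -1.77 and -3.11, against -0.05, -0.04 and -0.10 over all genes. Whether these glia descend from *Atoh1* precursors was not tested.

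*Kcnj10* (Kir4.1, the potassium-buffering channel) was at 132 and 112 CPM in astrocyte-like and 96.8 and 91.5 CPM in oligodendrocyte lineage-like cells, against 0.970 and 0.601 CPM in PN-like neurons (7.29 ± 0.19 and 6.78 ± 0.19 SE). *Kcnj16*, its Kir5.1 partner, whose upstream window stands beside it above, was at 61.6 and 57 CPM in astrocyte-like, 7.04 and 2.86 CPM in oligodendrocyte lineage-like and 0.466 and 0.386 CPM in neuron-like cells (7.16 ± 0.30 and 3.53 ± 0.34). Of the pair, *Kcnj10* was thus high in both glial classes and *Kcnj16* in the astrocyte-like one. *Kcne1l*, which fell along the PN lineage, was at 251 and 313 CPM in astrocyte-like and 1.56 and 1.36 CPM in neuron-like cells (7.62 ± 0.22). Its level in oligodendrocyte lineage-like cells was 3.56 and 1.61 CPM and did not pass the rule (0.90 ± 0.32).

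Astrocyte-like cells were also higher in *Kcnn3* (SK3, a calcium-activated channel), at 51 and 40.8 CPM against 4.57 and 3.58 CPM (3.53 ± 0.20), in *Kcnip3* (87.2 and 92.2 against 17.45 and 19.45 CPM, 2.33 ± 0.14), in *Kcnd3* (1.52 ± 0.18) and in *Cacna1h* (1.39 ± 0.24). *Kcnip3* and *Kcnd3* were higher in oligodendrocyte lineage-like cells too (1.18 ± 0.13 and 1.02 ± 0.15). *Kcnd2* did not differ between astrocyte-like cells (190 and 176 CPM) and neurons (185 and 199.5 CPM) beyond the spread (-0.03 ± 0.19, FDR = 0.89). *Kcnk2* did not pass either (0.18 ± 0.13, FDR = 0.236), although its astrocyte-like values of 51 and 51.3 CPM lay above both neuronal ones.

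In microglia-like cells 3 of the 8 higher genes were two-pore potassium genes. *Kcnk13* (THIK1, the resting potassium channel of microglia) was at 35.6 and 39.1 CPM against 1.49 and 1.78 CPM in neurons (4.87 ± 0.17), *Kcnk6* at 33.1 and 18.4 CPM against 0.207 and 0.136 CPM (7.53 ± 0.28) and *Kcnk12* at 21.3 and 23.3 CPM against 4.29 and 4.75 CPM (2.65 ± 0.16). *Kcnd1* was higher as well (6.82 and 7.24 against 4.26 and 3.69 CPM, 1.13 ± 0.31). Its log2 difference holds the normalization factors of the fit, which the CPM do not, and by the CPM alone it would stay under the limit. *Kcnj10* was at 5.29 and 2.33 CPM, far below the other glia and above the neurons (2.65 ± 0.35).

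Most channel genes tested were lower in glia than in neurons by the counts above, and their levels in glia differed between libraries. *Scn2a* was at 37 and 7.28 CPM in astrocyte-like and 24 and 7.76 CPM in microglia-like cells of libraries 1 and 2, against 259 and 272 CPM in neurons. Over the members with at least 50 CPM in neurons (23 in library 1 and 20 in library 2), the median level in microglia-like cells was 10.1 and 3.44% of that in neurons, in astrocyte-like cells 16.2 and 8.39% and in oligodendrocyte lineage-like cells 23.7 and 21.4%. The highest level of such a member was 38.9 and 33.6%, 138 and 147%, and 162 and 144% of that in neurons, in the same order. These members were picked by their level in neurons, which favors a low percentage in glia. The percentages are thus a description and do not show that channel genes are lower in glia. The summed level of 10 neuron markers in the same cells was 14 and 7.99%, 11.2 and 7.48%, and 12.4 and 11% of that in neurons. Free neuronal RNA in droplets and expression by the glia were not tested against each other, so a low neuronal channel level in glia is not read as expression here. *Rest* was at 47.2 and 47.7 CPM in astrocyte-like and 3.43 and 3.50 CPM in neuron-like cells (3.81 ± 0.14), and 19, 16 and 25 of the 28 partners were lower in the 3 glial classes.

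**Figure D4:**
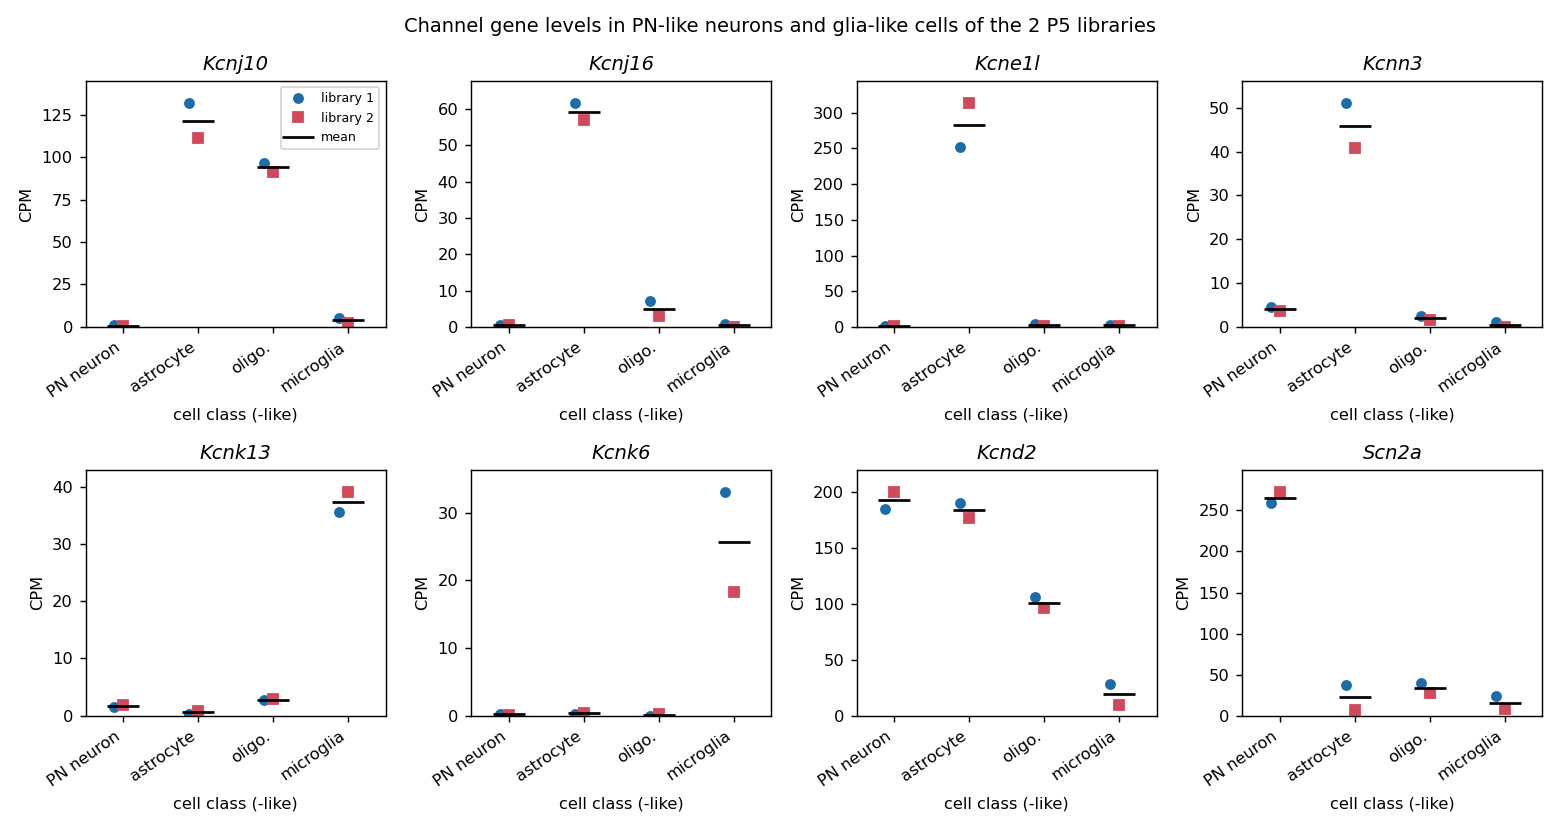
Levels of 8 channel genes (CPM, linear axes from 0) in PN-like neurons, astrocyte-like, oligodendrocyte lineage-like (oligo.) and microglia-like cells of the 2 P5 libraries, each symbol 1 library and each bar the mean of both. *Kcnj10* was high in both macroglial classes, *Kcnj16*, *Kcne1l* and *Kcnn3* in astrocyte-like cells, *Kcnk13* and *Kcnk6* in microglia-like cells, *Scn2a* in neurons at 259 and 272 CPM, and *Kcnd2* in neurons and astrocyte-like cells alike in level.

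Whether the hypomorphic allele changes channel genes was asked first in all kept cells of each embryonic stage. Without pairing of littermates, 0 of 111 channel genes tested were called at E14.5 and 0 of 109 at E18.5 by edgeR, as were 0% and 0% of all genes, with 13 and 5 members at an unadjusted p under 0.05 (11.9 and 2.01% of all genes) and 4 and 0 called by DESeq2 (3.02 and 0.131% of all genes). The members' counts at E14.5 are near these shares. With the E14.5 libraries of the later software version alone, edgeR called 0 of 122 members and 0 of 18649 genes (9 and 634 at an unadjusted p under 0.05), with 1 control left that is assumed to vary like the *Atoh1*S193A/- libraries. The test of whether the genotype effect differs between the stages called 0 of 116 (0% of all genes), with 4 members at an unadjusted p under 0.05 (7.16% of all genes) and 0 by DESeq2 (0.45%). The median log2 difference of the channel genes was -0.20 at E14.5 and -0.003 at E18.5, against 0.01 and 0.0025 over all genes.

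By the labels, a litter gave 1 embryo of each genotype to a replicate, and libraries of the same number deviated together, so the fit with the pair as a block was made as well. At E14.5 it called 23 of 116 channel genes, 5 higher and 18 lower in *Atoh1*S193A/- libraries, with 8.66% of all genes higher and 4.95% lower. By the file headers, the controls of pairs 1 and 2 were counted with an earlier Cell Ranger version than their littermates, so genotype and version cannot be told apart in those pairs. The paper lists a female control and a male littermate in pair 1 of E14.5 and the same sex within each other pair. Pair 3 alone was counted with 1 version, and 1 pair allows no blocked test. The interaction of genotype and stage with the block called 14 of 119 members, 13 higher and 1 lower, where 3.67% of all genes were higher and 5.32% lower. *Kcna1* was at 4.62, 5.13 and 4.66 CPM in controls and 3.20, 3.02 and 2.84 CPM in their littermates (-0.73, FDR = 0.0147, with the block and -0.72 ± 0.14 SE, FDR = 0.31, without). *Kcnc1* was at 55.2, 60.6 and 59.3 against 49.4, 49.2 and 48.5 CPM (-0.31, FDR = 0.0203), *Kcnb2* (Kv2.2) at 34.25, 40.9 and 39.35 against 29.6, 31.3 and 31.6 CPM (-0.36, FDR = 0.0183), both without overlap. *Scn9a* (-0.44), *Cacna1b* (-0.36), *Cacng2* (-0.32), *Scn3b* (-0.31) and *Scn2a* (-0.30) were lower in every pair with overlap between the groups. For *Scn2a* the values were 32.9, 45.2 and 41.6 CPM in controls and 27.9, 39.9 and 33 CPM in littermates.

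Of the 5 higher genes, *Kcnn3* was at 2.45, 2.77 and 2.18 CPM in controls and 4.05, 5.39 and 4.01 CPM in *Atoh1*S193A/- libraries (0.80, FDR = 0.0111) and *Kcne1* at 0.117, 0.197 and 0.209 against 1.29, 0.529 and 1.17 CPM (2.30, FDR = 0.0171). *Kcne1* was highest in progenitor-like cells in the states above, and *Kcnn3* was at 11.9, 2.89 and 9.82 CPM in those cells of the controls and at 2.02, 1.05 and 0.599 CPM in differentiated neuron-like cells, too low to be tested. *Kcne2* was at 5.85, 5.53 and 19 against 9.06, 18.54 and 94.7 CPM (1.57, FDR = 0.0189) and *Kcnj13* (Kir7.1) at 2.57, 3.59 and 6.88 against 4.34, 7.73 and 32.1 CPM (1.36, FDR = 0.0234), and in both the *Atoh1*S193A/- library of pair 3 stood far above the rest. Both are channel genes of the choroid plexus, and 5 choroid plexus markers (*Ttr*, *Folr1*, *Clic6*, *Kl* and *Aqp1*, listed after these values were seen) summed to 787, 765 and 2582 CPM in controls and 1734, 2537 and 13180 CPM in littermates. Almost all of the sum was *Ttr*, at 778, 756.5 and 2560 CPM in controls and 1716, 2511 and 13070 CPM in littermates. Ependymal or choroid-like cells numbered 8 to 47 per control and 34 to 252 per *Atoh1*S193A/- library. Progenitor markers summed to 1307 to 2441 CPM in controls and 2086 to 4650 CPM in *Atoh1*S193A/- libraries, and neuron markers to 5308 to 8108 against 4315 to 5932 CPM. Both overlapped, whereas endothelial markers, at 7.37 to 8.47 against 11.9 to 15.8 CPM, did not. Their part in the 23 calls was not tested. *Kcnb2*, *Kcne1*, *Kcne2* and *Kcnj13* are named here after their values were seen. *Rest* averaged 16.9 ± 1.39 (SD, n = 3) against 32.2 ± 3.69 CPM without overlap (0.88, FDR = 0.00775 with the block).

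Within PN-like states, 0 members were called in any of the 5 states at E14.5 by edgeR and by DESeq2. Fewer members were tested there than in all kept cells, and whether cells of a state differ in maturity was not tested. Median UMIs of differentiated neuron-like cells were 17563 to 20437 in control and 21129 to 23137 in *Atoh1*S193A/- libraries, without overlap. DESeq2 gave no adjusted p for 18 of the members in the intermediate progenitor-like and 33 in the migrating neuron-1-like test. The progenitor-like test held 46 members (0.00868% of all genes called) and the intermediate progenitor-like test 40 (0.00985%). The migrating neuron-1-like test held 38 (0.0491%), the migrating neuron-2-like test 61 (0%) and the differentiated neuron-like test 73 (0%). At an unadjusted p under 0.05 were 0, 3, 2, 1 and 1 members in that order, with 3.76, 4.57, 4.39, 2.51 and 1.61% of all genes. The migrating neuron-1-like state of *Atoh1*S193A/- library 2 held 1 cell and was left out. *Scn2a* in differentiated neuron-like cells was at 48.2, 54.9 and 51.6 CPM in controls and 56, 62.9 and 60.2 CPM in *Atoh1*S193A/- libraries (0.16 ± 0.10 SE), which did not pass although the groups did not overlap, and the difference had the opposite sign to that over all kept cells. *Kcnc1* was at 71.7, 87.3 and 60.5 against 74.7, 89.5 and 72.8 CPM (0.06 ± 0.15). With the block, 1 of the 43 members tested in the migrating neuron-1-like state passed, where 0.494% of all genes did. This was *Cacna2d1*, at 27.5, 56.2 and 38 CPM in controls and 65.4 and 57.5 CPM in *Atoh1*S193A/- libraries 1 and 3 (0.84, FDR = 0.0447, and 0.68 ± 0.22 SE, FDR = 0.848, without the block). Control library 2 has no partner in this state, so the blocked value rests on 2 pairs.

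In E18.5 PN-like neurons 0 of 79 members were called by edgeR or DESeq2, where 0.118% of all genes were, and 16 had an unadjusted p under 0.05 (6.39% of all genes). DESeq2 gave no adjusted p for 47 of the 79. The median log2 difference of the members was 0.12, against 0.0008 over all genes. Their summed share of UMIs, a description, was 0.323, 0.31 and 0.318% in controls and 0.336, 0.327 and 0.34% in *Atoh1*S193A/- libraries, without overlap. *Kcnma1* was at 34.2, 31.3 and 28.8 CPM in controls and 38.4, 39.1 and 47.6 CPM in *Atoh1*S193A/- libraries (0.43 ± 0.12 SE, FDR = 0.452) and *Kcnn2* (SK2) at 19.95, 26.6 and 24.6 against 34.3, 29.96 and 31.5 CPM (0.42 ± 0.12 SE, FDR = 0.506). In both the groups did not overlap, and neither passed. The make-up of the class differed as well, with 65, 76 and 167 cells of the embryonic subtype ePN1-like among 181, 229 and 553 in controls and 28, 15 and 43 of 255, 144 and 378 in *Atoh1*S193A/- libraries, and its part in these values was not tested. Neuron markers summed to 13990 to 15280 CPM in controls and 15660 to 16380 CPM in *Atoh1*S193A/- libraries, and PN lineage markers to 813.7 to 833.7 against 839.5 to 873.3 CPM, both without overlap, and their part was not tested either.

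**Figure D5:**
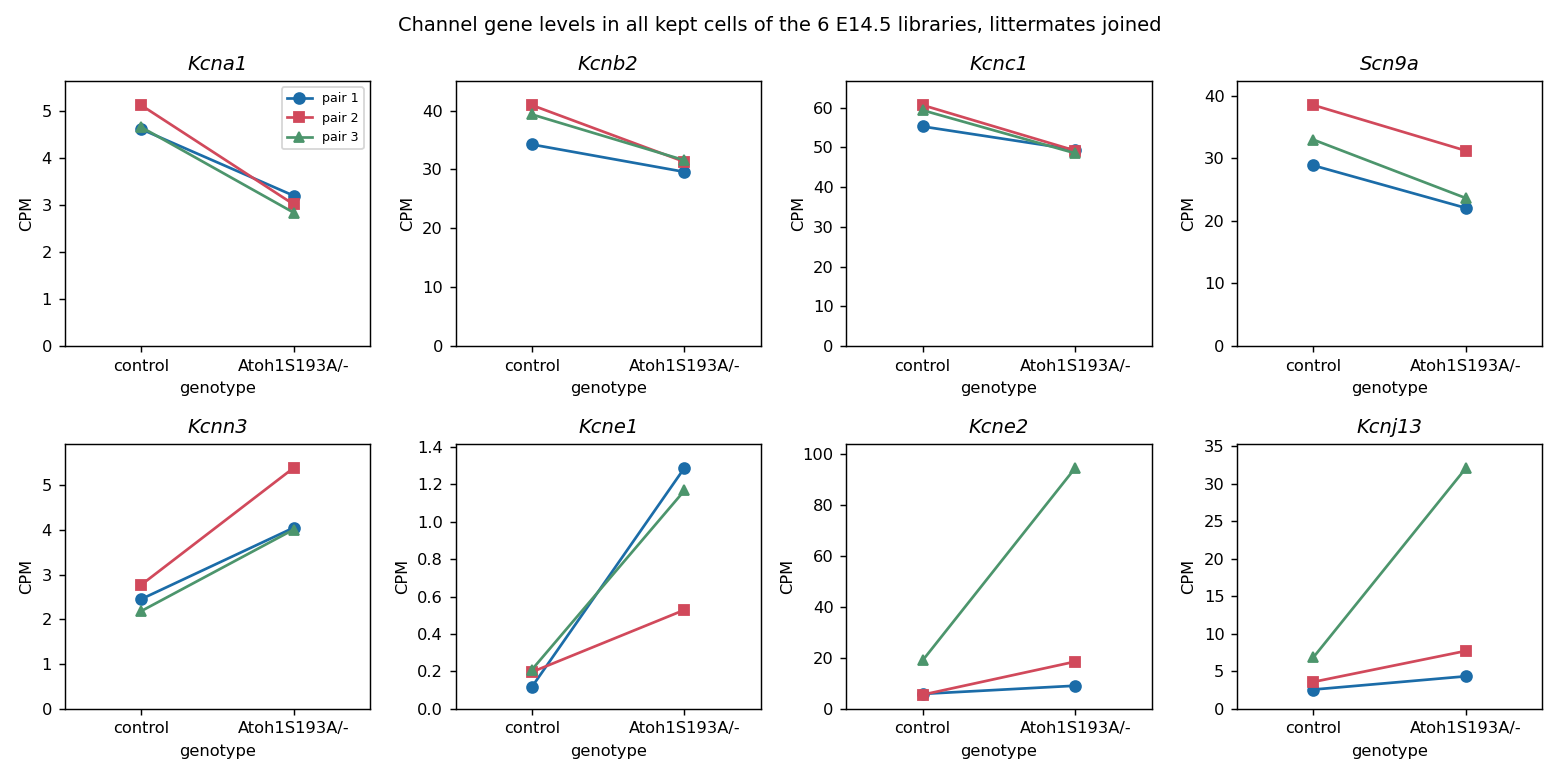
Levels of 8 channel genes (CPM, linear axes from 0) in all kept cells of the 6 E14.5 libraries, with a line joining each control library to the *Atoh1*S193A/- library of its littermate. *Kcna1*, *Kcnb2*, *Kcnc1* and *Scn9a* were lower and *Kcnn3*, *Kcne1*, *Kcne2* and *Kcnj13* higher in the *Atoh1*S193A/- library of each of the 3 pairs, and *Kcne2* reached 94.7 CPM in 1 library.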

How the data were processed

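Single-cell libraries were made by the authors with 10x Genomics 3′ chemistry, and the deposited matrices hold UMI counts per gene and barcode, not normalized. Per the file headers 2 libraries (E14.5 controls 1 and 2) were counted with Cell Ranger 3.1.0 and 12 with 5.0.1, whereas the submitters' processing notes name 5.0.1 alone. Of 150188 barcodes, 86757 had at least 1000 genes and at most 5% mitochondrial UMIs, and 6507 with the highest Scrublet scores (7.5% of each library) were removed as doublets, which left 80250 cells. Library medians were 3.25 to 5.09% mitochondrial UMIs, so the limit cut near the median. At E14.5, 3248 of 7972, 6352 of 10407 and 6568 of 12869 barcodes were kept in controls 1, 2 and 3. In the *Atoh1*S193A/- libraries 4773 of 9672, 6913 of 9000 and 6571 of 10812 were kept, a larger share in every pair. The part of this filter in the results was not tested beyond fits of all deposited barcodes. The kept cells of a library held 59993081 to 185029057 UMIs. Cells of each stage were clustered in scanpy 1.11.5 (2000 variable genes without the channel genes, 30 components, 15 neighbors, Leiden resolution 1) and clusters were called X-like from marker lists, with numeric limits set after the cluster means were seen. UMIs were summed per library and class (at least 10 cells), and CPM are UMI counts scaled to 1000000 in that class. The CPM hold no TMM factor, whereas the log2 differences of the fits do, so the size or sign of a difference can depart between them. The study's own mitochondrial limit, for which its methods point to its code by age, and its use of DoubletFinder were not applied here. For both genotypes at E14.5 the study reports more cells after filtering than the 16168 control and 18257 *Atoh1*S193A/- cells kept here.

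Sums were tested with edgeR 4.0.16 (R 4.3.3) by the quasi-likelihood test with TMM factors, filterByExpr and Benjamini-Hochberg adjustment (FDR) over all genes tested, with DESeq2 1.42.0 as an alternative. A call needed an FDR under 0.05 and a log2 difference beyond 0.25, or 1 for glia, or a range above 1 for subtypes. SE is the absolute log2 change over the root of the F statistic. Each embryonic replicate paired littermates of the 2 genotypes per the labels, and same-numbered libraries deviated together (correlations 0.429, 0.619 and 0.572 at E14.5 and 0.449, 0.410 and 0.730 at E18.5). At E18.5, control 1 with *Atoh1*S193A/- 2 and control 2 with *Atoh1*S193A/- 1 also correlated above 0 (0.241 and 0.173). In comparisons between groups of libraries the p-values measure the spread between embryos, or between pools at P5. Where the library or pair was a factor (states, granule lineage, subtypes, glia and blocked fits), its own level was taken out. There they measure how class or genotype differences vary over libraries or pairs. Genes named in a comparison were the called members with the 5 largest rises and falls at 5 CPM or more, the 10 with the largest range among subtypes, and 48 members with textbook roles. The members and the lists were chosen with earlier results of these data known. UMIs of overlapping genes cannot be told apart beyond the authors' counting. Alternatives were other size factors, filters, clustering resolution, all deposited barcodes, the littermate block, each replicate left out and libraries of 1 software version. The last was run only for genotype at E14.5 and for E18.5 against E14.5, both in all kept cells. Results of a few channel genes are not reported here.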

Additional observations from a re-analysis of the deposited data

Results flagged for a closer look

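With littermates as a block, 14 of 119 channel genes tested differed in their genotype effect between E14.5 and E18.5 in all kept cells, by the test of the interaction itself, where 3.67% of all genes were higher and 5.32% lower. The log2 effect at E18.5 minus that at E14.5 was -0.79 for *Kcnn3*, the calcium-activated channel that was higher in *Atoh1*S193A/- libraries at E14.5. It was positive for the other 13, among them 0.77 for *Kcna1*, 0.54 for *Kcnj6*, 0.41 for *Cacna1d*, 0.36 for *Scn3b*, 0.35 for *Cacng2*, 0.34 for *Kcnc1*, 0.34 for *Kcnb2*, 0.33 for *Kcnh7*, 0.32 for *Cacna2d2*, 0.31 for *Cacna1b*, 0.29 for *Scn2a* and 0.28 for *Kcnk10*. Without the block edgeR called 0 of them. The unblocked values of *Cacna1d* and *Scn2a* turned negative without *Atoh1*S193A/- replicate 3 of E18.5 (-0.0311 and -0.0398). Progenitor and neuron marker sums moved with genotype at E14.5 as given above, and their part in these values was not tested. In E14.5 pairs 1 and 2 the control was counted with another software version than its littermate, while all E18.5 libraries had 1 version. A genotype effect that differs by stage thus cannot be told apart from an effect of the version in those pairs.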

How the results depend on the processing

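Most counts of called channel genes stayed within 1.5 times their main value under the alternatives run. The exceptions were these. For genotype at E14.5 in all kept cells, DESeq2 called 4 members and the littermate (replicate) block 23 in place of 0, and for the interaction of genotype with stage the block called 14 in place of 0. In migrating neuron-1-like cells 1 member was called without the filter on low counts and 1 with the block, in place of 0. The block changed no other count. With genes limited to those with a UMI in 10% of the cells of a group, E18.5 against E14.5 in all kept cells gave 34 of 53 members tested in place of 63 of 110, and the granule lineage 48 of 49 in place of 84 of 93. Fewer genes were tested, and the shares of all genes called were 51.6 in place of 45.6% and 75.1 in place of 72.9%. Leaving out each replicate in turn gave 52 to 70 for E18.5 against E14.5 in all kept cells, 51 to 57 for PN-like maturation, 80 to 84 for the granule lineage, 45 to 58 for E18.5 against E14.5 and 52 to 64 for P5 against E18.5 in PN-like neurons, and 0 for each genotype comparison. The shares of all genes called in the same fits are not set beside these counts. The counts are therefore not read as a trait of the channel genes. Without *Atoh1*S193A/- replicate 3 of E18.5, the unblocked interaction of *Cacna1d* was -0.0311 and that of *Scn2a* -0.0398, both turned in sign and neither called in any unblocked fit, and the cause was not tested. Their ranges with each replicate left out in turn were -0.0311 to 0.743 and -0.0398 to 0.600. Of 3289 values of named genes under alternatives, 3145 kept their direction and their side of the threshold, 99 lost and 43 gained the call, and 2 turned in sign. Leaving out a replicate could not be fitted for P5 subtypes and glia, which have 2 libraries. Levels of a few UMIs per library limit the channel genes under 1 CPM.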
